A study of Mus musculus with 11 samples.

Results

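The data described here are the signals of skeletal muscle genes on each of 11 mouse bead arrays, taken 1 array at a time. The rule named 44 genes, and a gene was kept when its brightest probe, the probe with the highest mean signal among those detected, stood above the negative control beads of at least 1 array (detection p under 0.05). That left 35 genes of 10933 genes measured on the arrays. Of the other 9 named genes, 7 had a probe that was not detected on any array and 2, Myh2 and Smpx, had no probe of a single symbol and were not analysed here. Beside the list of names, the measured values that chose genes and probes were this detection limit and the mean signal of a probe, and a gene that passed only through an array where it is high had to differ between arrays.

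The RNA came from frozen tumors of A375, a human melanoma line with mutant BRAF, grown under the skin of the right posterior flank of female CD1 athymic mice that were 6 weeks old at implantation. These mice lack a thymus and so most T cells, and the tumors were whole pieces in which human tumor cells and mouse host cells were not separated. The groups were PLX4720, a BRAF inhibitor (60 mg/kg by daily gavage, 3 arrays), bevacizumab, an antibody against VEGF (10 mg/kg into the peritoneum 3 times a week, 3 arrays), both together (COMBO, 2 arrays) and vehicle (methylcellulose, 3 arrays), each for 12 days. A375 was the single line used, and nothing in the labels says how much host tissue was taken with a tumor.

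Skeletal muscle fibres contract through sarcomeres, in which myosin heads pull on actin filaments and the troponin complex switches the filaments on when calcium is released from the sarcoplasmic reticulum. Fast fibres and slow fibres use different members of the same gene families, so that a fast troponin, myosin light chain or myosin-binding protein has a slow partner. Fast fibres also carry the calcium buffer parvalbumin and the calcium pump Atp2a1, and both kinds of fibre rely on creatine kinase and glycolysis for energy. The genes were therefore read by role, as 14 named fast fibre genes (11 detected), 7 slow fibre genes (4 detected), 10 sarcomere genes of both fibre types (7 detected), 3 genes of excitation and calcium release (3 detected) and 10 genes of energy metabolism (10 detected).

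Muscle signal was present on 6 of the 11 arrays, with at least 1 of them in every group, and arrays of the same group differed widely. Of the 35 genes, the number detected was 32, 9 and 27 on the PLX4720 arrays (replicates 1, 2 and 3), 8, 26 and 5 on the bevacizumab arrays, 29 and 18 on the COMBO arrays and 6, 14 and 6 on the vehicle arrays. The muscle level of an array, the mean over the 35 genes of its log2 signal minus the vehicle mean, was 4.83, -0.34 and 1.53 on the PLX4720 arrays, -0.03, 2.45 and -0.34 on the bevacizumab arrays, 2.95 and 0.56 on the COMBO arrays and -0.23, 0.52 and -0.29 on the vehicle arrays. PLX4720 replicate 1 was the highest, followed by COMBO replicate 1, bevacizumab replicate 2 and PLX4720 replicate 3, while COMBO replicate 2 and vehicle replicate 2 were close to each other and the remaining 5 arrays were low. The group means were 2.01 ± 2.61 for PLX4720, 0.69 ± 1.53 for bevacizumab (SD, n = 3 each), 1.75 ± 1.69 for COMBO (SD, n = 2) and 0 ± 0.45 for vehicle (SD, n = 3). PLX4720 and bevacizumab overlapped vehicle, whereas both COMBO arrays lay above all vehicle arrays, replicate 2 narrowly. In bulk tumors, fewer muscle cells and less muscle RNA per cell cannot be told apart.

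**Figure D1:**
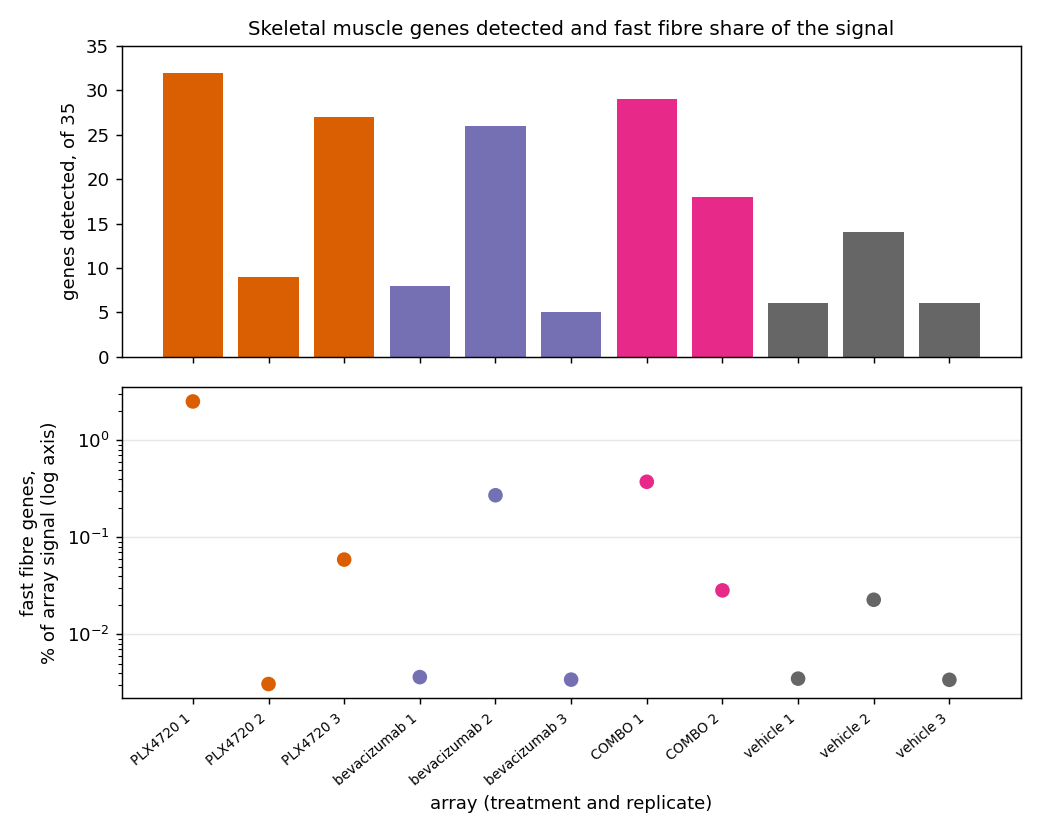
Top, the number of the 35 skeletal muscle genes with a detection p under 0.05 on each array. Bottom, the percent of each array's background-corrected signal held by the 11 detected fast fibre genes, on a log axis. One point or bar stands for 1 array, coloured by group. PLX4720 replicate 1 (32 genes, 2.52% of the signal) is the highest and 5 arrays lie at 0.00308% to 0.00363%.

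The 11 fast fibre genes took 2.52%, 0.00308% and 0.0591% of the background-corrected signal on the PLX4720 arrays, 0.00363%, 0.272% and 0.00342% on the bevacizumab arrays, 0.374% and 0.0284% on the COMBO arrays and 0.00350%, 0.0228% and 0.00340% on the vehicle arrays. The same 6 arrays stood above the rest by this measure, and the 5 low arrays were nearly equal. Acta1, the alpha actin of the skeletal muscle thin filament, alone held 0.522% of the signal on PLX4720 replicate 1.

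The spread of these genes was far above that of an ordinary gene on the arrays. Their median standard deviation within groups was 1.79 on the log2 scale, against 0.36 over all 10933 genes, and 24 of the 35 were among the 110 genes with the largest such spread. All of the 15 genes with the largest spread were muscle genes of the rule, led by Acta1 at 4.25 and the fast myosin light chain Myl1 at 3.94.

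**Figure D2:**
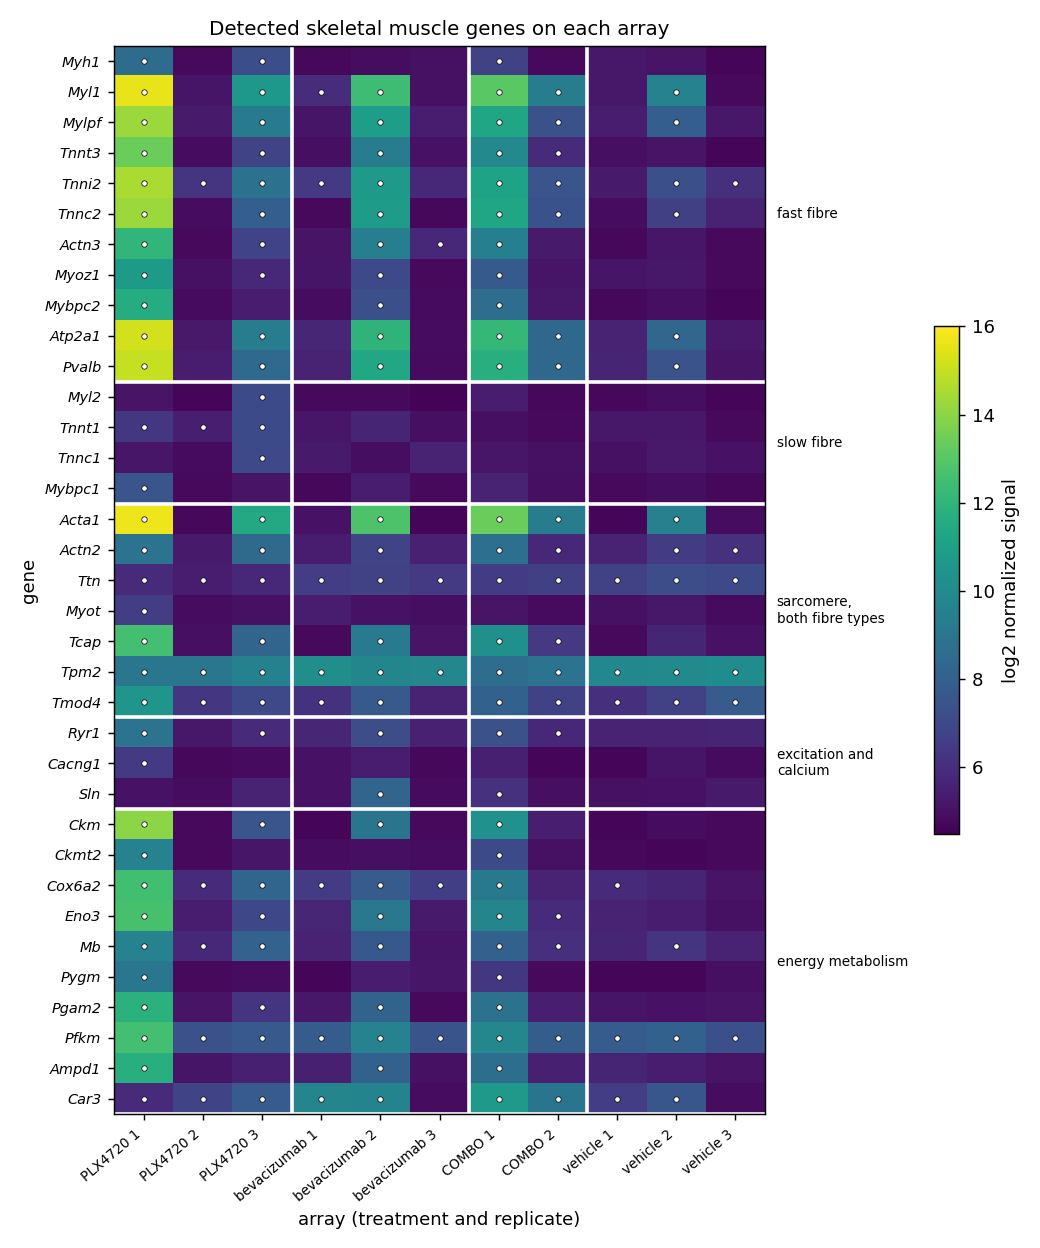
Log2 normalized signal of the 35 detected skeletal muscle genes (rows, by role) on each of the 11 arrays (columns, by treatment and replicate). White points mark a detection p under 0.05. The columns of PLX4720 replicate 1, COMBO replicate 1, bevacizumab replicate 2 and PLX4720 replicate 3 are the brightest, and the slow fibre genes Myl2 and Tnnc1 are marked on PLX4720 replicate 3 only.

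Acta1 had the widest range of any of the 35 genes. Its log2 signal was 15.72, 4.73 and 11.43 on the PLX4720 arrays, 5.08, 12.80 and 4.65 on the bevacizumab arrays, 13.35 and 9.32 on the COMBO arrays and 4.71, 9.52 and 4.90 on the vehicle arrays. It was detected on 6 arrays and lay between 4.65 and 5.08 on the other 5, so high and low arrays occurred in every group but COMBO, and the groups overlapped. Vehicle replicate 2 was the 1 vehicle array that detected it, so folds against vehicle are lower bounds, taking for each vehicle array the higher of the gene's own signal and the lowest signal of any detected probe. The signal was at least 400-fold above vehicle on PLX4720 replicate 1, 77.4-fold on COMBO replicate 1, 52.8-fold on bevacizumab replicate 2, 20.4-fold on PLX4720 replicate 3 and 4.74-fold on COMBO replicate 2.

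The promoters of Acta1 and of the fast genes Mylpf and Atp2a1, which were high on the same arrays, are shown with that of Tnnc1. Of those arrays, this slow gene was detected on PLX4720 replicate 3 alone. RefSeq windows on GRCm38.p6, from 250 bases before to 50 bases after the gene start, were found for 32 of the 44 genes. The capitals mark CAGCTG, an E-box of the kind bound by the MyoD family of muscle factors, CATTCC or its reverse complement GGAATG, the MCAT element, and the CArG box, the element of serum response factor. Both strands were searched, and no marked motifs overlapped in these 4 windows.
Acta1 (chr8:123894726-123895025, minus strand): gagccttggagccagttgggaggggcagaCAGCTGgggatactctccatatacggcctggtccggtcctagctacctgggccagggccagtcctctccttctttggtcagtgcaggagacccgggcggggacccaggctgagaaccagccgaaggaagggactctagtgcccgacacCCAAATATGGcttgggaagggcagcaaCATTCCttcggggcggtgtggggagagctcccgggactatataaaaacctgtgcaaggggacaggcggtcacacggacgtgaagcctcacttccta
Mylpf (chr7:127211358-127211657, plus strand): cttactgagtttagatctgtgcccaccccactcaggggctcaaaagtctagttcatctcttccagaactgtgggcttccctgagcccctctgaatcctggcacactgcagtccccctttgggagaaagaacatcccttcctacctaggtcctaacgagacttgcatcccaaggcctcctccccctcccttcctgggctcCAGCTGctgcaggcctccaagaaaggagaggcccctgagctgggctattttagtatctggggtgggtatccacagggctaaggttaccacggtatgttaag
Atp2a1 (chr7:126463024-126463323, minus strand): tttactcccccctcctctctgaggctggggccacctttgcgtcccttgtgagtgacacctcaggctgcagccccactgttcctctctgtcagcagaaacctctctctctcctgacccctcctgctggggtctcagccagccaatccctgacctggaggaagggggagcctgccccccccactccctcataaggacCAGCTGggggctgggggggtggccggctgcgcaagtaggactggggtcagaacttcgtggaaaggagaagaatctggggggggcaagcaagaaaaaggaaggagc
Tnnc1 (chr14:31208062-31208361, plus strand): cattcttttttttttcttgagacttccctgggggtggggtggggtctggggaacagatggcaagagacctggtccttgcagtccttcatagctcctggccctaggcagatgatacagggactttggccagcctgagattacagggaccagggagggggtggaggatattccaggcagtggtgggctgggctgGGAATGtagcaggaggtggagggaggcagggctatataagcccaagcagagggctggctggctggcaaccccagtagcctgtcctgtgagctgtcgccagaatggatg

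The Acta1 window held CAGCTG 221 bases before the start, a CArG box at 73 bases and CATTCC at 46 bases. CAGCTG lay 51 bases before the start of Mylpf and 55 bases before that of Atp2a1, and the Tnnc1 window held GGAATG 58 bases before its start and no CAGCTG. Over the 32 genes with a window, 18 (56.2%) held CAGCTG, against 18.3% of 27025 genes in the table, and 10 (31.2%) held CATTCC, against 16.6%. A CArG box was in 2 of the 32 (6.25%, against 1.81%) and a MEF2 box in 7 (21.9%, against 3.7%). CAGCTG was in 5 of 10 fast and 4 of 7 slow genes. These matches describe the letters of the windows and were not tested as binding sites.

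Among the fast fibre genes, the troponin subunits had the same 4 leading arrays as Acta1, in the same order. Tnni2, the fast inhibitory subunit, had a log2 signal of 14.54, 6.23 and 8.80 on the PLX4720 arrays, 6.4, 10.67 and 5.78 on the bevacizumab arrays, 11.18 and 7.54 on the COMBO arrays and 5.33, 7.30 and 6.04 on the vehicle arrays. Tnnt3, the subunit that ties the complex to tropomyosin, had 13.42, 4.90 and 6.87 on the PLX4720 arrays, 4.97, 9.32 and 5.04 on the bevacizumab arrays, 9.93 and 5.86 on the COMBO arrays and 4.99, 5.09 and 4.72 on the vehicle arrays. Tnnc2, the calcium-binding subunit, had 14.28, 4.90 and 7.95 on the PLX4720 arrays, 4.80, 10.85 and 4.74 on the bevacizumab arrays, 11.25 and 7.41 on the COMBO arrays and 4.86, 6.66 and 5.63 on the vehicle arrays. In each of the 3 genes PLX4720 replicate 1 was highest, followed by COMBO replicate 1 and then bevacizumab replicate 2. Both COMBO arrays lay above every vehicle array, as they did for 20.8% of all genes, and for Tnni2 narrowly (7.54 against 7.30). PLX4720 and bevacizumab overlapped vehicle.

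The motor and thick-filament genes of fast fibres had the same leading arrays with 1 exception. Mylpf, the fast regulatory light chain, had a log2 signal of 14.25, 5.32 and 9.25 on the PLX4720 arrays, 5.16, 10.91 and 5.44 on the bevacizumab arrays, 11.24 and 7.37 on the COMBO arrays and 5.43, 7.92 and 5.22 on the vehicle arrays. Mybpc2, the fast myosin-binding protein, had 11.62, 4.83 and 5.44 on the PLX4720 arrays, 4.89, 7.29 and 4.85 on the bevacizumab arrays, 8.60 and 5.26 on the COMBO arrays and 4.73, 4.98 and 4.72 on the vehicle arrays. Vehicle replicate 2 was high for Mylpf and not for Mybpc2, which was detected on 3 arrays only. Myh1, the heavy chain of the IIx fast fibre, was the exception, at 8.57, 4.77 and 7.27 on the PLX4720 arrays, 4.75, 4.88 and 5.0 on the bevacizumab arrays, 6.79 and 4.78 on the COMBO arrays and 5.22, 5.11 and 4.70 on the vehicle arrays. It was higher on PLX4720 replicate 3 than on COMBO replicate 1, and it was not detected on bevacizumab replicate 2. The heavy chain Myh4 of IIb fibres was not detected on any array, its highest log2 signal being 5.16.

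Of the remaining fast genes, Myoz1, a protein of the Z-disc, had a log2 signal of 10.75, 5.0 and 5.81 on the PLX4720 arrays, 5.13, 7.04 and 4.80 on the bevacizumab arrays, 7.77 and 5.17 on the COMBO arrays and 5.13, 5.24 and 4.81 on the vehicle arrays. It was detected on the 4 highest arrays and no others. Casq1, the calcium store of the fast reticulum, was not detected, with a lowest detection p of 0.102. Myl1, Atp2a1, Pvalb and Actn3, the alpha actinin of fast fibres, had ranges of 10.83, 10.35, 10.16 and 7.33 on the log2 scale, each with PLX4720 replicate 1 on top. Pvalb, the parvalbumin gene, also detected on 1 vehicle array, was at least 396-fold above vehicle on PLX4720 replicate 1, 42-fold on COMBO replicate 1 and 31.2-fold on bevacizumab replicate 2, by the same bound.

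Of the 4 detected slow fibre genes, 3 were highest on PLX4720 replicate 3, where fast genes were moderate. Myl2, the slow regulatory light chain and partner of Mylpf, had a log2 signal of 5.09, 4.65 and 7.08 on the PLX4720 arrays, 4.77, 4.80 and 4.62 on the bevacizumab arrays, 5.40 and 4.75 on the COMBO arrays and 4.75, 4.91 and 4.68 on the vehicle arrays. Tnnc1, the slow calcium-binding troponin, had 5.21, 4.82 and 7.03 on the PLX4720 arrays, 5.34, 4.92 and 5.62 on the bevacizumab arrays, 5.18 and 5.01 on the COMBO arrays and 5.01, 5.29 and 5.06 on the vehicle arrays. Both were detected on PLX4720 replicate 3 and on no other array. They were at least 2.21-fold (Myl2) and 2.14-fold (Tnnc1) above vehicle there, by the bound used for Acta1. Since each was kept through that array alone, its being high there was set by the detection limit.

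Tnnt1, the slow tropomyosin-binding troponin, had a log2 signal of 6.38, 5.47 and 7.09 on the PLX4720 arrays, 5.21, 5.69 and 4.98 on the bevacizumab arrays, 4.97 and 4.80 on the COMBO arrays and 5.23, 5.25 and 4.81 on the vehicle arrays. It was detected on the 3 PLX4720 arrays and nowhere else, and all 3 lay above all vehicle arrays, although replicate 2 did so by little. Since Tnnt1 was kept through these arrays alone, the detection limit favoured a high value in that group. Mybpc1, the slow myosin-binding protein, had 7.55, 4.80 and 5.12 on the PLX4720 arrays, 4.75, 5.36 and 4.77 on the bevacizumab arrays, 5.58 and 4.96 on the COMBO arrays and 4.77, 4.91 and 4.74 on the vehicle arrays. It was detected on PLX4720 replicate 1 alone, at least 3.06-fold above vehicle. Since Mybpc1 was kept through that array alone, its being high there was set by the detection limit. The slow partners Tnni1, Myoz2 and Casq2 were not detected on any array, with lowest detection p of 0.0588, 0.224 and 0.135.

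Fast and slow genes were also set apart on the 4 arrays highest in muscle genes. The median shift from the vehicle mean on PLX4720 replicate 1 was 8.31 for the 11 fast genes and 0.80 for the 4 slow genes. The 2 medians were 5.0 and 0.34 on COMBO replicate 1 and 4.5 and 0.29 on bevacizumab replicate 2. On PLX4720 replicate 3 they were 2.26 and 1.95, so that fast minus slow was 0.31, against 7.52, 4.66 and 4.21 on the other 3 arrays. With cyclic loess normalization the difference on PLX4720 replicate 3 was -0.08, and over the 42 genes with a probe, detected or not, it was 1.92, against 7.96, 4.93 and 4.08 on PLX4720 replicate 1, COMBO replicate 1 and bevacizumab replicate 2. The value of 0.31 is therefore a description of the genes kept, since Myl2 and Tnnc1 entered the slow median through PLX4720 replicate 3 alone. A slow gene below the detection limit has a shift near 0 whatever its true level, and no test was possible between single arrays.

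**Figure D3:**
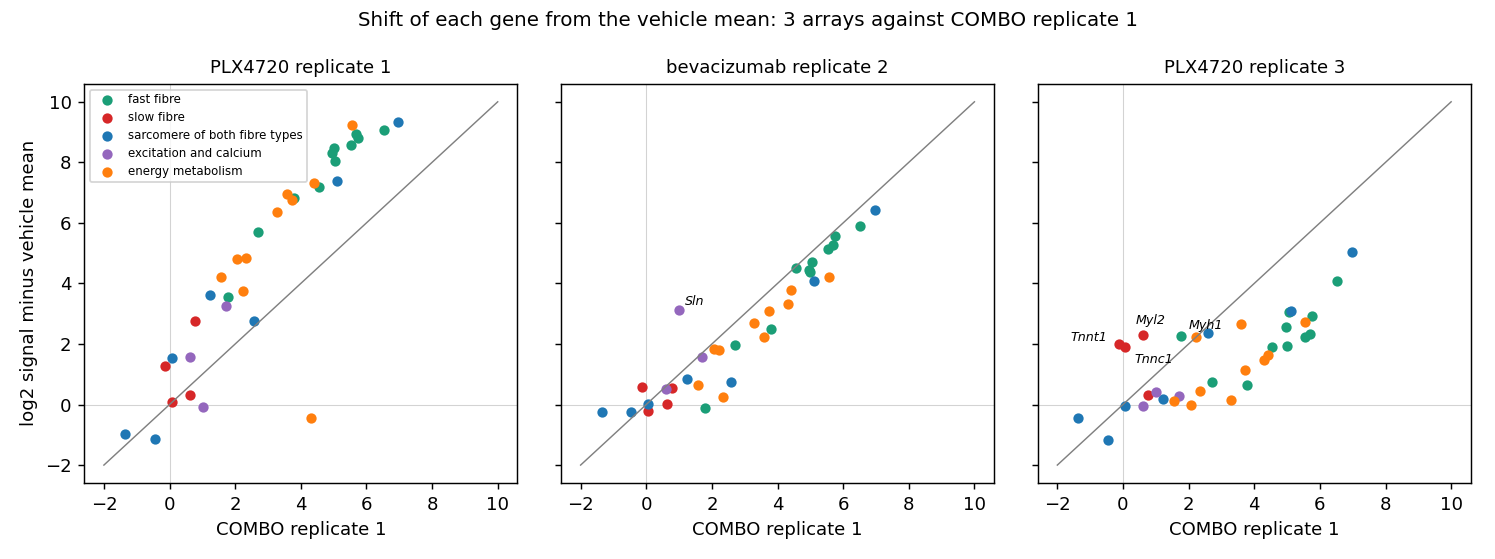
Each point is 1 of the 35 genes, coloured by role, at its log2 signal minus the vehicle mean on COMBO replicate 1 (horizontal) and on PLX4720 replicate 1, bevacizumab replicate 2 or PLX4720 replicate 3 (vertical). The grey diagonal marks equal shifts. Fast genes lie above it on PLX4720 replicate 1 (median difference 3.02) and below it on the other 2 arrays, except Myh1, which with the slow genes Myl2, Tnnc1 and Tnnt1 lies above it on PLX4720 replicate 3. Sln lies above it on bevacizumab replicate 2.

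Setting single arrays against each other over the genes detected on both showed how far the muscle signal scaled as a whole. PLX4720 replicate 1 was above COMBO replicate 1 in 26 of 28 genes, with a median difference of 2.69 on the log2 scale, and in 11 of 11 fast genes by 1.78 to 3.49. Bevacizumab replicate 2 was slightly below COMBO replicate 1, with a median of -0.53 over 26 genes and fast genes from -1.31 to -0.05. The 14 genes detected on vehicle replicate 2 were all detected on COMBO replicate 2 as well, and the median difference of COMBO replicate 2 from vehicle replicate 2 was -0.16. PLX4720 replicate 3 was below COMBO replicate 1 by a median of -2.07 over 24 genes, but unevenly. Pvalb differed by -3.37 and Tnnc2 by -3.30, whereas Myh1 differed by 0.48, the myoglobin gene Mb by 0.01 and Actn2, the alpha actinin of all fibres, by -0.20. Mb and Actn2 were chosen for naming after their values were seen, and these differences are those of the brightest probes. The other detected Mb probe was 5.62 on PLX4720 replicate 3 and 6.54 on COMBO replicate 1. The other detected Actn2 probe was 6.93 and 6.43.

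Among the sarcomere genes of both fibre types, Tcap, which caps titin at the Z-disc, had a log2 signal of 12.55, 4.98 and 8.25 on the PLX4720 arrays, 4.80, 9.24 and 5.09 on the bevacizumab arrays, 10.28 and 6.39 on the COMBO arrays and 4.77, 5.70 and 5.05 on the vehicle arrays. Tmod4, which caps the pointed end of thin filaments, had 10.48, 6.33 and 7.03 on the PLX4720 arrays, 6.19, 7.71 and 5.59 on the bevacizumab arrays, 8.09 and 6.73 on the COMBO arrays and 6.08, 6.71 and 7.79 on the vehicle arrays. Tcap kept the order of the fast genes, and Tmod4, by its brightest probe, was high on vehicle replicate 3 as well, where the muscle level was low. The other Tmod4 probes were at 5.0 and 4.77 on that array, below its lowest detected signal of 5.86. Actn2 ranged over 3.54 and Myot, a Z-disc protein detected on PLX4720 replicate 1 only, over 1.75, and neither Neb nor Trim63 was detected on any array.

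The brightest probes of Ttn, the giant spring of the sarcomere, and Tpm2, beta tropomyosin, did not follow the muscle signal, whereas at least 1 other probe of each gene did, and these probes were named after their values were seen. The brightest Tpm2 probe had a log2 signal of 9.01, 9.02 and 9.54 on the PLX4720 arrays, 10.20, 9.76 and 9.83 on the bevacizumab arrays, 8.63 and 8.89 on the COMBO arrays and 9.85, 10.02 and 10.11 on the vehicle arrays. The other Tpm2 probe had 10.32, 4.75 and 7.52 on the PLX4720 arrays, 4.68, 8.74 and 5.13 on the bevacizumab arrays, 9.28 and 5.66 on the COMBO arrays and 4.97, 5.19 and 4.90 on the vehicle arrays. The first probe was detected on all 11 arrays and lowest on the COMBO arrays, and the second was detected on the 4 arrays highest in fast genes. Tpm2 is also expressed in smooth muscle and other cells, and which transcripts each probe meets, mouse or human, was not tested.

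The brightest Ttn probe had a log2 signal of 5.87, 5.43 and 5.84 on the PLX4720 arrays, 6.59, 6.76 and 6.47 on the bevacizumab arrays, 6.54 and 6.66 on the COMBO arrays and 6.76, 7.21 and 7.02 on the vehicle arrays. Another Ttn probe, also detected on 4 arrays, had 12.02, 4.82 and 6.31 on the PLX4720 arrays, 5.04, 8.09 and 5.60 on the bevacizumab arrays, 8.34 and 5.34 on the COMBO arrays and 4.82, 5.22 and 4.89 on the vehicle arrays. The 3 PLX4720 arrays were below all vehicle arrays by the first probe, and PLX4720 replicate 1 was far above them by the second. Of the 23 detected probes of the 35 genes that were not the brightest, 18 had a Pearson correlation of at least 0.8 with the muscle level over the 11 arrays.

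**Figure D4:**
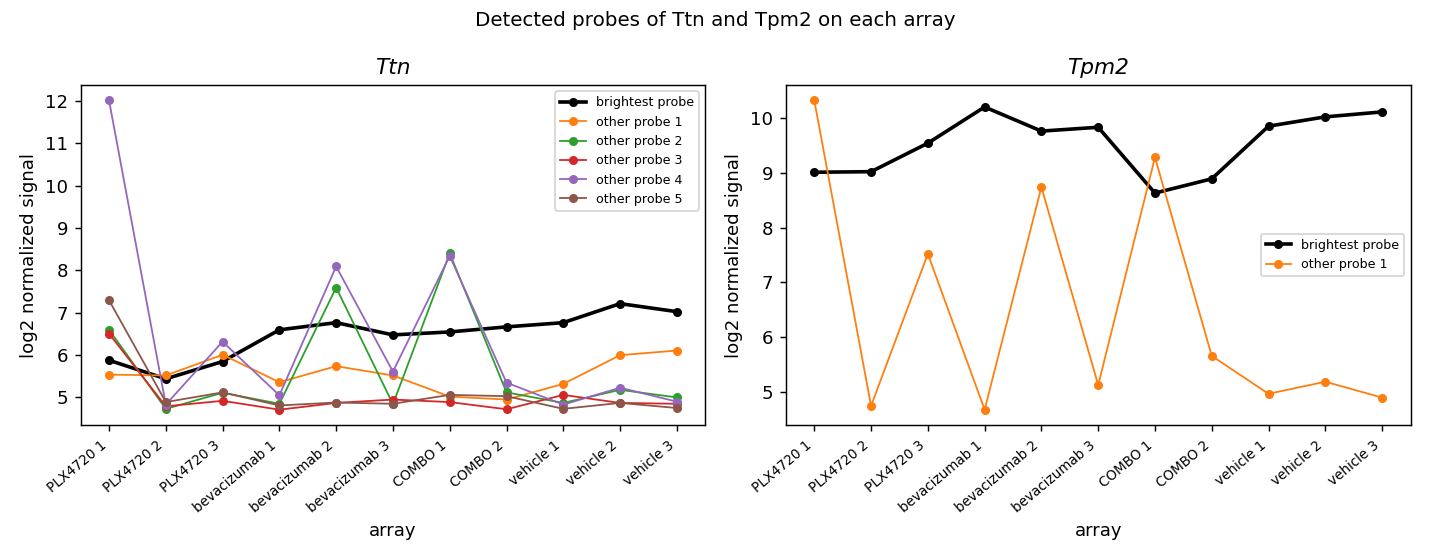
Log2 normalized signal of each detected probe of Ttn (6 probes, left) and Tpm2 (2 probes, right) on the 11 arrays. Lines only join the points of a probe and black is the brightest probe. The brightest probes stay between 5.43 and 7.21 (Ttn) and between 8.63 and 10.20 (Tpm2), while another probe of each gene peaks on PLX4720 replicate 1 at 12.02 and 10.32.

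Of the genes of excitation and calcium release, Ryr1, the calcium release channel, had a log2 signal of 8.90, 5.24 and 5.91 on the PLX4720 arrays, 5.74, 7.21 and 5.54 on the bevacizumab arrays, 7.34 and 5.78 on the COMBO arrays and 5.58, 5.63 and 5.68 on the vehicle arrays. Sln, sarcolipin, an inhibitor of the calcium pump, had 5.08, 4.89 and 5.58 on the PLX4720 arrays, 5.05, 8.27 and 4.82 on the bevacizumab arrays, 6.16 and 4.95 on the COMBO arrays and 5.02, 5.08 and 5.35 on the vehicle arrays. Ryr1 was highest on PLX4720 replicate 1, whereas Sln was not detected there and was detected on bevacizumab replicate 2, at least 5.04-fold above vehicle, and COMBO replicate 1 only. Cacng1, a subunit of the calcium channel of the muscle membrane, was detected on PLX4720 replicate 1 alone, at 6.45 there and from 4.69 to 5.51 on the other arrays.

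Of the 10 energy genes, 9 were highest on PLX4720 replicate 1. Ckm, muscle creatine kinase, had a log2 signal of 14.02, 4.78 and 7.51 on the PLX4720 arrays, 4.67, 8.99 and 4.77 on the bevacizumab arrays, 10.33 and 5.47 on the COMBO arrays and 4.65, 4.87 and 4.81 on the vehicle arrays. It was at least 272-fold above vehicle on PLX4720 replicate 1, 21.1-fold on COMBO replicate 1, 8.33-fold on bevacizumab replicate 2 and 2.98-fold on PLX4720 replicate 3, by the same lower bound. Ckm was detected on these 4 arrays and on no vehicle array. Eno3, muscle enolase, had 12.66, 5.36 and 6.98 on the PLX4720 arrays, 5.73, 9.11 and 5.35 on the bevacizumab arrays, 9.74 and 5.86 on the COMBO arrays and 5.64, 5.36 and 5.0 on the vehicle arrays. Cox6a2, the muscle subunit of cytochrome oxidase, had 12.51, 5.93 and 8.23 on the PLX4720 arrays, 6.56, 7.79 and 6.63 on the bevacizumab arrays, 9.15 and 5.61 on the COMBO arrays and 5.89, 5.71 and 5.10 on the vehicle arrays. Pygm, muscle glycogen phosphorylase, had the smallest range of the 10, with 9.0, 4.77 and 4.90 on the PLX4720 arrays, 4.68, 5.43 and 5.21 on the bevacizumab arrays, 6.35 and 4.78 on the COMBO arrays and 4.67, 4.72 and 4.95 on the vehicle arrays. Eno3 had the leading arrays of the fast genes, Cox6a2 was higher on PLX4720 replicate 3 than on bevacizumab replicate 2, and Pygm passed detection on PLX4720 replicate 1 and COMBO replicate 1 only. The ranges of Mb, Ckmt2, Pfkm, Ampd1 and Pgam2, not given by array here, were 4.46, 4.88, 5.23, 6.73 and 7.04.

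Car3, a carbonic anhydrase of slow fibres and of fat cells, did not follow the other energy genes and is named after its values were seen. Its log2 signal was 5.89, 6.88 and 7.81 on the PLX4720 arrays, 9.72, 9.68 and 4.87 on the bevacizumab arrays, 10.66 and 8.98 on the COMBO arrays and 6.58, 7.57 and 4.90 on the vehicle arrays. It was low on PLX4720 replicate 1, where muscle genes were highest, and high on bevacizumab replicate 1, where they were low. Adipoq, the fat cell hormone adiponectin, had 10.26, 6.47 and 9.15 on the PLX4720 arrays, 9.76, 8.14 and 5.0 on the bevacizumab arrays, 9.51 and 8.05 on the COMBO arrays and 6.97, 5.45 and 4.90 on the vehicle arrays. The 2 genes shared the high value on bevacizumab replicate 1 but not the one on PLX4720 replicate 1.

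Comparing the groups by their means addressed whether a treatment changed these genes, and the test was the moderated statistic of limma fitted to all 10933 genes with Benjamini-Hochberg adjustment. After PLX4720 against vehicle, 1 of the 35 genes was higher at an adjusted p under 0.05 (5.51% of all genes) and 2 were lower (7.51%). Tnnt1 averaged 6.31 ± 0.82 in PLX4720 tumors and 5.10 ± 0.25 in vehicle tumors (SD, n = 3 each), a log2 fold change of 1.22 (SE 0.36, adjusted p = 0.047 in limma), or at least 1.30-fold since no vehicle array detected it. The call passed in 1 of the 11 fits that left out 1 array, the one without PLX4720 replicate 2. Tnnt1 was kept through the PLX4720 arrays alone. The detection limit thus favoured a higher value in that group, here and in the comparisons with PLX4720 below. Ttn, by its brightest probe, was lower by a log2 fold change of -1.28 (SE 0.22, adjusted p = 0.00625 in limma). On the PLX4720 arrays this probe was near the lowest signal of any detected probe, at 5.87, 5.43 and 5.84 against 5.44, 5.39 and 5.60. Its log2 fold change was -0.61 without background correction and -0.65 with median scaling. Tpm2 had a log2 fold change of -0.80 (SE 0.24, adjusted p = 0.0458 in limma), which was 0.23 with median scaling and passed in 2 of the 11 fits that left out 1 array. The other probes named above gave 2.74 for Ttn (adjusted p = 0.230 in limma) and 2.51 for Tpm2 (adjusted p = 0.228), so for both genes the direction depends on the probe.

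The 11 fast genes had positive log2 fold changes after PLX4720, from 1.86 to 3.92, and none passed, the lowest adjusted p being 0.118 in limma. Acta1 averaged 10.63 ± 5.54 in PLX4720 tumors and 6.38 ± 2.73 in vehicle tumors (SD, n = 3 each), a log2 fold change of 4.25 with an SE of 2.67 (adjusted p = 0.291 in limma). A log2 fold change of at least 1 was reached by 27 of the 35 genes, against 7.13% of all genes, and 1, Ttn, was lower by at least 1 (8.02%). All PLX4720 arrays lay above all vehicle arrays for Cox6a2 and Tnnt1 (19.3% of all genes) and below them for Tpm2 and Ttn (15.8%). At an unadjusted p under 0.05 in limma, 4 genes were higher (Cox6a2, Mb, Myh1 and Tnnt1, against 16.8% of all genes) and 2 lower (14.7%). At the threshold of the study's methods, an unadjusted p under 0.01 with a log2 fold change of at least 1, Tnnt1 was higher (4.45% of all genes) and Ttn lower (6.42%). The median log2 fold change was 1.98 over the 35 genes and 0.14 over all genes. The SE of the 35 genes had a median of 1.14, against 0.30 over all genes. Removing PLX4720 replicate 2, which is low in muscle, left only the PLX4720 arrays that carry muscle signal. That fit gave 7 genes called, against 3 with all arrays. The share of all genes called in it is not given here, so the count is a description only. Cox6a2, with all arrays, had a log2 fold change of 3.32 (SE 1.31, adjusted p = 0.108 in limma).

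After bevacizumab against vehicle, 0 of the 35 genes passed in either direction (0.00915% of all genes higher and 0% lower), and 0 had an unadjusted p under 0.05 in limma (3.28% of all genes higher and 3.72% lower). None met the threshold of the methods (0.274% and 0.476%). Their median log2 fold change was 0.81 over the 35 genes and 0 over all genes, and 13 of 35 reached a log2 fold change of 1, where 1.05% of all genes did, and 0 the same size in the other direction (0.814%). All bevacizumab arrays lay above all vehicle arrays for Cox6a2 and for Ckmt2, which was not detected on any of these arrays (6.6% of all genes), and below them for Ttn (7.08%). Acta1 averaged 7.51 ± 4.59 in bevacizumab tumors and 6.38 ± 2.73 in vehicle tumors (SD, n = 3 each), with replicate 2 alone high.

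COMBO against vehicle also gave 0 of 35 calls (0.119% of all genes higher and 0.247% lower), with 1 gene higher (Car3, against 7.25% of all genes) and 1 lower (Tpm2, 6.7%) at an unadjusted p under 0.05 in limma. At the threshold of the methods 0 were higher (1.97%) and Tpm2 was lower (2.04%). A log2 fold change of at least 1 was reached by 22 genes (4.28% of all genes), and Tpm2 was lower by that much (3.88%). The median log2 fold change was 1.41, against 0.01 over all genes. Both COMBO arrays lay above all 3 vehicle arrays for 15 of the 35 genes, against 20.8% of all genes. Of these, Atp2a1, Car3, Eno3, Pvalb, Ryr1, Tcap, Tnnc2, Tnni2 and Tnnt3 were detected on both COMBO arrays. Actn3, Ckm, Ckmt2, Mybpc2 and Pgam2 were detected on COMBO replicate 1 and on no vehicle array. On COMBO replicate 2 they were at 5.01 to 5.47, below its lowest detected signal of 5.70. Mybpc1 was detected on neither COMBO nor vehicle arrays. For Mybpc1 and these 5 genes, the order of COMBO replicate 2 against vehicle is one of signals below detection. Both COMBO arrays lay below all vehicle arrays for Tpm2 and Ttn (19.2%). Car3 averaged 9.82 ± 1.19 in COMBO tumors (SD, n = 2) and 6.35 ± 1.35 in vehicle tumors (SD, n = 3), a log2 fold change of 3.47 (SE 1.27, adjusted p = 0.254 in limma). Tpm2, by its brightest probe, differed by -1.23 (SE 0.26, adjusted p = 0.0786 in limma).

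COMBO against PLX4720 gave 0 of 35 calls (0.00915% of all genes higher and 0% lower), with 2 genes higher (Car3 and Ttn, against 6.63% of all genes) and 1 lower (Tnnt1, 7.39%) at an unadjusted p under 0.05 in limma. The arrays of the groups did not overlap for the same 2 higher genes (14.5% of all genes) nor, on the low side, for Tnnt1 and Tpm2 (17.2%). At the threshold of the methods 0 were higher (2.09%) and Tnnt1 was lower (1.68%). Since Tnnt1 was kept through the PLX4720 arrays alone, the detection limit favoured this direction. Car3 alone was higher by a log2 fold change of 1 (4.3%), and Cox6a2, Myh1 and Tnnt1 were lower by as much (3.94%). The median log2 fold change of the 35 genes was -0.49, against -0.07 over all genes. The F test of limma across PLX4720, bevacizumab, COMBO and vehicle called Tpm2 and Ttn, 2 of 35 genes, at an adjusted p under 0.1 (10.6% of all genes), and at an unadjusted p under 0.05 also Tnnt1 (3 of 35, against 24.8%). The 3 comparisons with vehicle share the same 3 vehicle arrays.

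**Figure D5:**
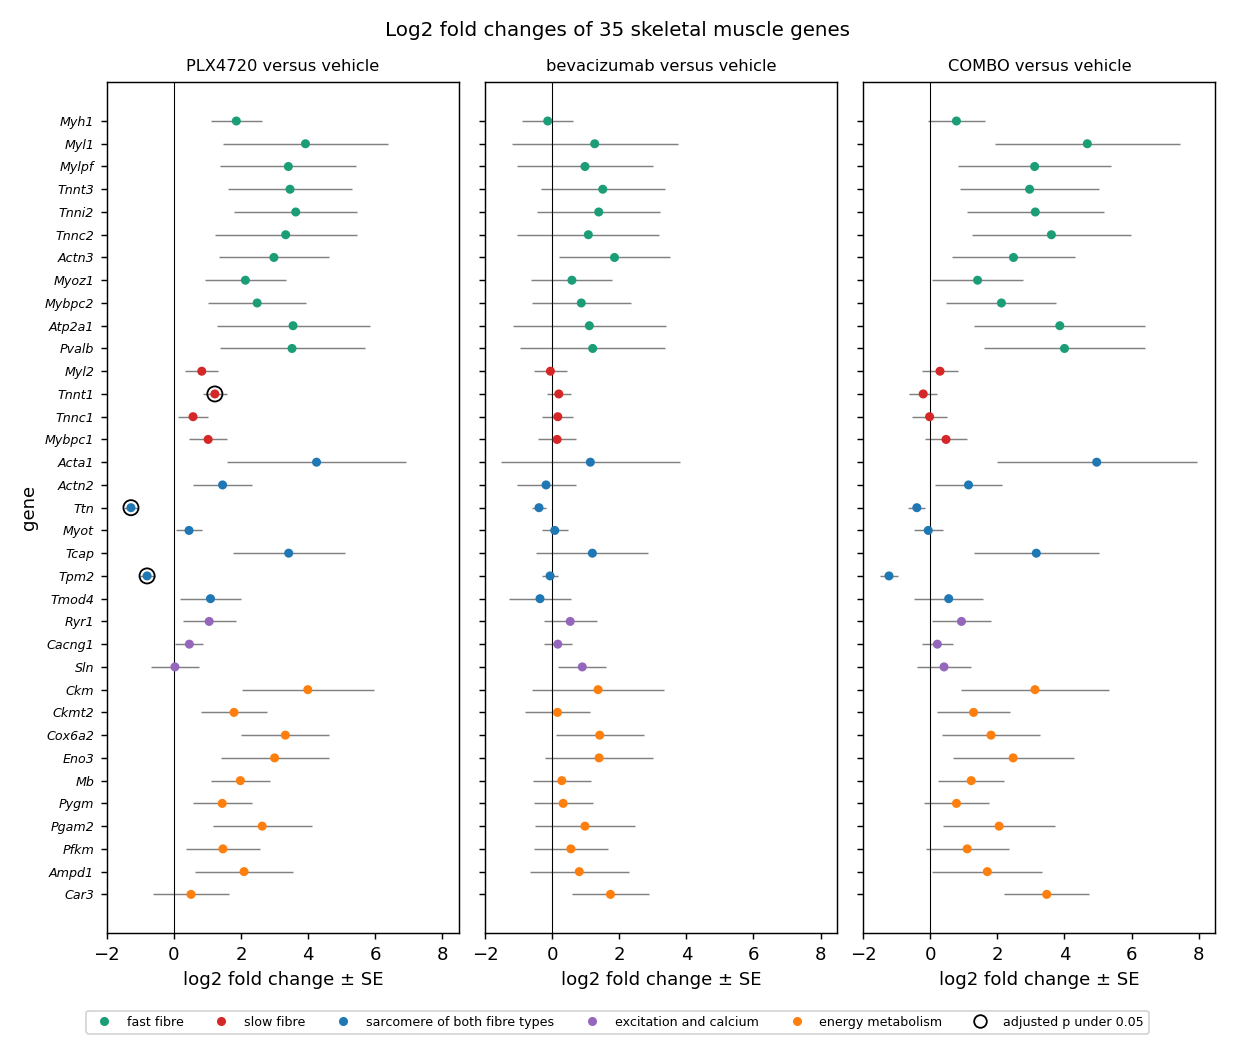
Log2 fold change of each of the 35 genes (rows, coloured by role) after PLX4720, bevacizumab and COMBO against vehicle, with bars of 1 SE from limma. Circles mark an adjusted p under 0.05. The fast genes lie to the right, except Myh1 after bevacizumab (-0.13). Their bars are wide, up to 2.76 for Myl1 in the COMBO panel, where the bar of Acta1 is 2.98. The 3 circled genes, Tnnt1, Ttn and Tpm2, have short bars.

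Genes outside the 44 stood apart on fewer arrays. Of 64 other skeletal muscle genes on a list, 47 were detected, and their mean shift from vehicle was 2.18, -0.26 and 0.18 on the PLX4720 arrays, 0.03, 0.55 and -0.10 on the bevacizumab arrays and 0.85 and -0.02 on the COMBO arrays, with -0.05, 0.13 and -0.08 on the vehicle arrays. PLX4720 replicate 1, COMBO replicate 1 and bevacizumab replicate 2 were above the rest, while PLX4720 replicate 3 was near vehicle replicate 2 and COMBO replicate 2 was among the low arrays. By number detected, PLX4720 replicate 3 also stood above the low arrays, at 23 of 47. Counts were 41 on PLX4720 replicate 1, 31 on COMBO replicate 1, 25 on bevacizumab replicate 2 and 13 to 15 on the others. PLX4720 replicate 1 was the highest array for 30 of the 47. After PLX4720 against vehicle 0 of the 47 were higher (5.51% of all genes) and 4 lower (7.51%) at an adjusted p under 0.05 in limma, namely Cacnb1, Eef1a2, Gys1 and Tpm3. Tpm3, the slow tropomyosin that many other cells also express, was 10.02, 13.52 and 11.53 on the PLX4720 arrays and 14.45, 14.90 and 14.76 on the vehicle arrays.

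The genes most like the muscle level over the 11 arrays were Xirp2, an actin-binding repeat protein of muscle (Pearson r 0.97), Pdlim3 of the Z-disc (0.96) and Ankrd23, a titin-associated ankyrin repeat protein (0.96). The next 12 were Hspb6, Trim72, Klhl41, Myom2, Myo18b, Rpl3l, Des, Fabp3, Cmya5, Myf6, Mylk2 and Tmem38a, down to 0.92. Xirp2 had a log2 signal of 10.35, 5.01 and 6.51 on the PLX4720 arrays, 4.89, 6.97 and 4.91 on the bevacizumab arrays, 7.41 and 5.07 on the COMBO arrays and 4.81, 5.08 and 5.22 on the vehicle arrays. An r of at least 0.9 was found for 20 of 10898 other genes and for 22 of the 35, whose own mean is the level. These values describe 11 arrays that differ in treatment and in which PLX4720 replicate 1 carries much of the variance.

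Of the other muscle genes, Myl3, Myom3 and Hspb7 are named because they were detected on PLX4720 replicate 3 alone, which was seen in their values. Myl3, the light chain of slow fibres and ventricle, was 5.78 on that array and 4.63 to 5.20 on the others. Myom3, an M-band protein, was 5.87 there and at most 5.08 elsewhere, and Hspb7 was 6.15 there and at most 5.31 elsewhere. Of 12 cardiac markers 3 were detected at all, and the other two, Myl4 and Nkx2-5, were highest elsewhere. Myl4 was 6.16 on PLX4720 replicate 3 and 6.95 on vehicle replicate 2, and Nkx2-5 was 6.12 on PLX4720 replicate 3 and 6.20 on bevacizumab replicate 3. Krt14, a keratin of the basal epidermis, was also detected on PLX4720 replicate 3 alone, at 7.0 there and 4.85 to 5.23 on the others. The other detected keratinocyte markers were not highest there. Sbsn was 5.69 on that array and 7.57 on vehicle replicate 3, and Krt10 was 5.82 and, on bevacizumab replicate 2, 6.63.

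Markers of other tissues did not all go with muscle. The mean shift of 8 detected adipocyte markers, of 12 on the list, was 2.16, 0.24 and 1.36 on the PLX4720 arrays, 1.41, 0.62 and -0.35 on the bevacizumab arrays, 1.88 and 0.90 on the COMBO arrays and 0.31, 0.06 and -0.36 on the vehicle arrays. Bevacizumab replicate 1 was high in adipocyte markers with a low muscle level, and the part of fat tissue in the muscle values was not tested. Smooth muscle markers (5 of 10 detected) were lowest on the COMBO arrays, with mean shifts of -1.98 and -1.23, and at -0.97 on PLX4720 replicate 1. Peripheral nerve markers (5 of 12 detected) lay between -0.20 and 0.50 on all arrays, tendon markers (4 of 8) between -0.47 and 0.74, keratinocyte markers (3 of 14) between -0.38 and 0.39 and housekeeping genes (8 of 10) between -0.06 and 0.51. After PLX4720 against vehicle, Lpl (adipocyte), Comp (tendon) and B2m (housekeeping) were higher at an adjusted p under 0.05 in limma (5.51% of all genes). Sbsn (keratinocyte) was lower (7.51%).

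Genes of myogenesis, regeneration and denervation (14 of 24 detected) did not move as a group, with mean shifts from -0.37 to 0.15. Myf6, the myogenic factor of mature fibres, was an exception, at 7.15, 5.07 and 5.24 on the PLX4720 arrays, 5.22, 5.63 and 5.18 on the bevacizumab arrays, 6.32 and 5.14 on the COMBO arrays and 5.26, 5.39 and 4.75 on the vehicle arrays. It was detected on PLX4720 replicate 1 and COMBO replicate 1, the 2 arrays with the highest muscle level. Fbxo32, a ubiquitin ligase that rises in muscle wasting, was lower after PLX4720 against vehicle (log2 fold change -1.79, SE 0.36, adjusted p = 0.0111 in limma), as was Myog, myogenin (-0.97, SE 0.26, adjusted p = 0.0351). These were 2 of the 14 genes, against 7.51% of all genes, and 0 were higher (5.51%). On the PLX4720 arrays Myog, at 5.38, 5.31 and 5.45, was below the lowest signal of any detected probe (5.44, 5.39 and 5.60). The size of its change is therefore uncertain.

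The number of probes detected ranged from 10115 on vehicle replicate 2 to 15130 on PLX4720 replicate 2. PLX4720 replicate 1, highest in muscle, had 14543 and PLX4720 replicate 3 had 13049, the next highest counts, while COMBO replicate 1 had 11536, and the part of this in the muscle values was not tested. Arrays have no read depth, and precision is limited by how many arrays each group has. The study's methods describe the arrays of a group as biological replicates, but the labels do not tie each to an animal of its own, so the p-values measure the spread between these arrays, which may be technical.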

How the data were processed

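Tumor RNA was hybridised to 11 bead arrays (MouseWG-6 v2.0). From GenomeStudio 2011.01 the authors deposited probe intensity without normalization, with a deposited detection p-value computed from the negative control beads, and a second table of intensity normalized by cubic spline. Here the non-normalized intensity was background-corrected by normexp with an offset of 16, quantile-normalized and put on the log2 scale, as neqc of limma 3.58.1 does (R 4.3.3). Of 45281 probes, 34885 have 1 gene symbol, 18 several and 10378 none, and 34807 were matched by identifier, with 0 symbols changed. The brightest detected probe stands for a gene.

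Group means were fitted to all arrays in limma with 7 residual and 4.918 prior degrees of freedom, on 10933 genes, and tested on simulated data first. Adjustment was by Benjamini-Hochberg over these genes. Values are given for both members of 7 fast and slow pairs, for the fast myosins and, in each other role, for the 3 genes with the largest range and the 1 with the smallest. The genes and lists were chosen with earlier results of these data known. Alternatives changed the background correction, normalization, probe, filter, moderation, arrays and block, and the chip was not used. Promoter windows were scanned in Python 3.11.15.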

Additional observations from a re-analysis of the deposited data

How the results depend on the processing

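Under every alternative run on it, the muscle level of each array moved by less than the spread between replicates. That SD, 2.61 for PLX4720, 1.53 for bevacizumab and 1.69 for COMBO, is the uneven muscle signal itself. PLX4720 replicate 3, at 1.53, or COMBO replicate 2, at 0.56, could fall to the vehicle mean and stay within it. The check is therefore weak. The number of the 35 genes called after PLX4720 against vehicle was 3 and fell to 1 with array weights, housekeeping scaling, a fit of the compared groups only, the probe with the highest signal on any array, the fit without the 3 arrays highest in muscle and, added after seeing the data, without both PLX4720 arrays that carry muscle signal. It was 0 with the mean of detected probes and from 1 to 7 when 1 array was left out, with 7 without PLX4720 replicate 2 and 1 without PLX4720 replicate 1, any vehicle array, either COMBO array or bevacizumab replicate 2 or 3. Over 27 settings Ttn passed in 25, and Tnnt1 and Tpm2 in 8 each. Normalization settings kept the same probe, but with no background correction, median scaling, cyclic loess or housekeeping scaling the brightest Ttn probe would be the one that gave 2.74 and did not pass. COMBO against vehicle gave 0, and 1 with array weights, no background correction, the threshold of the methods (log2 fold change of 1 and p of 0.01) and without both PLX4720 arrays. COMBO against PLX4720 gave 0, with 2 after median scaling, 1 at the threshold of the methods and 0 to 1 without 1 array (1 without PLX4720 replicate 2). The F test gave 2, with 0 by the mean of probes, 0 by the probe with the highest single-array signal, 0 without the 3 arrays and 1 (without COMBO replicate 1) to 6 (without PLX4720 replicate 2) when 1 array was left out. Bevacizumab against vehicle gave 0 under all settings run. Reversed values were Ttn at 0.54 (mean of probes) and 2.74 (highest single-array probe) after PLX4720 and -0.12 and -0.88 for COMBO against PLX4720. Tpm2 gave 0.86, 2.51 and, by median scaling, 0.23 after PLX4720, and 0.61 and 2.45 for COMBO against vehicle. Acta1 gave -1.64 after PLX4720 without both PLX4720 arrays, a fit that leaves 1 PLX4720 array, chosen for low muscle signal and assumed to vary like the other groups. The fast minus slow difference on PLX4720 replicate 3 gave -0.08 by cyclic loess. Vehicle replicate 2 detected 8 genes, not 14, at a detection p under 0.01. The share of signal of the 35 genes on the vehicle arrays was 0.0261%, 0.0614% and 0.0284%, against 0.0611%, 0.0939% and 0.0712% without background correction and 0.0639%, 0.111% and 0.0643% by the authors' normalized values. Why values moved was not tested, except where the alternative uses other probes or fewer arrays. Shares over all genes are not given for these settings. The counts thus describe how the calls moved and are not a result about the 35 genes.

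The deviations of same-numbered arrays from their group means had a mean correlation of 0.02 (15 pairs) and the rest -0.01 (30 pairs). Deviations cancel within a group, so these correlations depend on each other and cannot show whether the replicate numbers pair the arrays. With the replicate number as a block, 1 of the 35 genes was called after PLX4720 against vehicle. A fit with the chip as a block was not run because the table headers name no chip.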
